A study of Mus musculus with 6 samples.

Results

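Toll-like receptors and the genes that bring lipopolysaccharide (LPS) to them were followed in CD11B+ cells of the injured mouse kidney. The set held 10 genes, picked by symbol from the 46603 genes of the count table, with earlier results of these data known. They are the LPS receptor Tlr4 with its partners Ly96, Cd14 and Lbp, the surface receptors Tlr1 and Tlr2, and the endosomal receptors Tlr7, Tlr8, Tlr9 and Tlr13. All 10 passed the filter on low counts, and 8 of them were lower in PTEC DN RAR mice than in Cre– controls, by between 0.28 and 1.65 on the log2 scale, beside 17.1% of all genes tested that were lower. With libraries scaled on pan-leukocyte genes in place of TMM, 4 of the 10 were lower (Tlr4, Cd14, Lbp and Tlr13), beside 4.87% of all genes. None was higher under either scaling, and Tlr9 and Ly96 passed under neither.

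RNA-Seq was done on kidney cells held on CD11b magnetic beads, from male mice aged 10–12 weeks, on day 3 after 28 minutes of bilateral clamping of the renal pedicles (IRI-AKI), with 3 libraries per genotype. Every mouse carried the Rosa26-LSL-RARaT403X allele, which encodes a truncated, dominant-negative retinoic acid receptor α behind a stop cassette that Cre removes. PTEC DN RAR mice (PEPCK CRE+) also carried a Cre transgene under the PEPCK promoter, active in proximal tubular epithelial cells (PTECs), and Cre– controls (PEPCK CRE-) did not. Cre activity in the sorted cells themselves was not measured here. The comparison asks how CD11B+ cells differ when retinoic acid signaling is inhibited in PTECs. Uninjured CD11B+ cells were not analysed here, so no change with injury is given. Each library has its own number in the labels, which do not say whether animals were pooled, so p values measure the spread between these libraries.

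Toll-like receptors recognize microbial molecules and molecules released by damaged tissue. LPS is picked up by the soluble protein Lbp, passed to Cd14 at the cell surface and bound by Ly96 (MD-2) in complex with TLR4. TLR2 pairs with TLR1 or TLR6 to bind bacterial lipopeptides, whereas TLR7, TLR8, TLR9 and TLR13 sit in endosomes and meet nucleic acids. In the kidney, TLR2 and TLR4 on leukocytes and on tubular cells are known for their part in the inflammation that follows ischemia.

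Promoters are shown for 3 endosomal receptors, of which Tlr8 and Tlr13 fell and Tlr9 did not pass the test. Each run spans 250 bases before to 50 bases after the start of the gene, is taken from RefSeq on GRCm38.p6 and is written 5′ to 3′ on the strand of the gene. Capitals mark letters that match GAGGAA (the core of PU.1 sites), TGANTCA (AP-1 sites), TTGCNNAA (a form of C/EBP sites) or GGNNTTTCC (a form of NF-κB sites) on either strand. No marked match overlaps another.
Tlr8 (chrX:167264280-167264579, minus strand): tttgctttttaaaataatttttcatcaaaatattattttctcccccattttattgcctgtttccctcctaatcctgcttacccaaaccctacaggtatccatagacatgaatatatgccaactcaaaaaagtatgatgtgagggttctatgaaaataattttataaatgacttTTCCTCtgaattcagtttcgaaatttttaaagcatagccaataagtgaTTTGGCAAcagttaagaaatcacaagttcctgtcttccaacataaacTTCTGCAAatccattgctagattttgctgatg
Tlr13 (chrX:106143025-106143324, plus strand): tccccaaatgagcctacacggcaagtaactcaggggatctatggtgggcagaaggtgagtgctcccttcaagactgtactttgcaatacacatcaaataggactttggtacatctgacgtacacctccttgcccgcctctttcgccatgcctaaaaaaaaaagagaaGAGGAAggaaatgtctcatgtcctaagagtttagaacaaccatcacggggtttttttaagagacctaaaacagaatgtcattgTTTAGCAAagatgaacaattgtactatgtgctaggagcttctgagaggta
Tlr9 (chr9:106222348-106222647, plus strand): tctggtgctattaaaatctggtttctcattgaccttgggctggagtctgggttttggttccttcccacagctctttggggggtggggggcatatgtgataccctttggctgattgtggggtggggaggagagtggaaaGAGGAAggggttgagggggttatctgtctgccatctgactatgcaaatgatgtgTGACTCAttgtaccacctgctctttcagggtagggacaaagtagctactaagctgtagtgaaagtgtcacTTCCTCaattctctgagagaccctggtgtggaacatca

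GAGGAA was present in the promoters of Tlr8 (77 bases before the start), Tlr13 (83 bases before) and Tlr9 (112 bases before and 12 after). This motif stood in 28.3% of all 32851 promoters of the same length. TTGCNNAA was found in Tlr8 (29 bases before and 18 after the start) and at the start of Tlr13, against 10.8% of all promoters, and not in Tlr9. TGANTCA was found in Tlr9, 58 bases before the start, against 7.81% of all promoters. GGNNTTTCC, which stood in 5.82% of promoters, had no match in any of the 3. The table held promoters for 5 of the 10 genes: Tlr1 had a GAGGAA match 23 bases before the start of one of its promoters, and Tlr2 had a match to none of the 4 motifs. The matches are descriptions of letters, and binding was not measured.

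Sequencing depth was between 29318041 and 46517005 counted reads per library, and 3 reads corresponded to between 0.0645 and 0.102 CPM (read counts scaled to a common library size, with TMM factors). The member with the fewest reads, Lbp, had between 99 and 318. Tubular and endothelial RNA was higher in the PTEC DN RAR libraries: all 10 proximal tubule markers, 5 of 6 loop and distal tubule markers and all 6 endothelial markers rose, and mitochondrial genes took 10.38–12.08% of reads against 5.03–8.77% in controls. Infiltrating monocyte markers summed to 1264–1493 CPM against 2589–2874 CPM in controls (6 of 8 lower), neutrophil markers to 298.8–425.9 against 470.6–849.4 CPM (5 of 10 lower), and resident macrophage markers to 21710–27400 against 19670–24810 CPM (1 of 10 lower and 1 higher). The defining monocyte gene Ccr2 fell by 0.73 on the log2 scale (adjusted p = 0.000691 in edgeR's quasi-likelihood test), and the CD11B gene Itgam itself fell by 0.64 (adjusted p = 0.00818). Beside these marker counts, 17.1% of all genes tested were lower and 23.6% higher. No marker in these lists was at 0 in every library. The part of these differences in the results that follow was not tested, and in bulk RNA fewer cells of a type and less RNA per cell cannot be told apart.

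The LPS receptor complex was lower in PTEC DN RAR mice in 3 of its 4 genes. Tlr4, the signaling receptor (chr4:66827584-66930284, GRCm38, plus strand), stood at 105, 120 and 132 CPM in the Cre– controls, whereas PTEC DN RAR libraries held 54.8, 68.1 and 51.7 CPM. The groups did not overlap. The mean went from 119 ± 13.2 to 58.2 ± 8.69 CPM (SD, n = 3 each), which is 49.0% of the control mean. The log2 fold change was -1.03 ± 0.13 (SE), with an adjusted p of 0.000695 in edgeR's quasi-likelihood test over 15440 genes. Tlr4 is also listed by the study among its downregulated genes on these libraries, as is Lbp, so their direction is not independent evidence.

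Cd14, the GPI-anchored co-receptor that hands LPS to TLR4 (chr18:36725067-36726798, minus strand), was the most abundant of the 10 genes. Its values were 965, 807 and 971 CPM in controls and 573, 548 and 468 CPM in PTEC DN RAR libraries. The groups did not overlap, and Cd14 fell by 0.79 ± 0.12 (SE) on the log2 scale (edgeR adjusted p = 0.00154), to 57.9% of the control mean.

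Lbp, the LPS-binding protein best known as a secreted product of the liver (chr2:158306493-158332852, plus strand), was expressed at a low level. Controls held 5.97, 10.7 and 5.86 CPM and PTEC DN RAR libraries 2.65, 2.38 and 2.10 CPM. The second control stood well above the other two, and all 3 PTEC DN RAR libraries were below the lowest control. Lbp had the largest fall of the 10 genes, by 1.65 ± 0.26 on the log2 scale (edgeR adjusted p = 0.00200), and without that control it still fell, by 1.36, the smallest of its values when each library was left out. Its neighbor Bpi, which encodes a related LPS-neutralizing protein, had no read in any library.

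Ly96, the MD-2 subunit that holds LPS against TLR4 (chr1:16688051-16709611, plus strand), did not pass the test. Its values were 11.3, 9.19 and 9.85 CPM in controls and 7.84, 8.44 and 7.57 CPM in PTEC DN RAR libraries. All 3 PTEC DN RAR values lay below all 3 controls, with a log2 fold change of -0.35 ± 0.13 (SE) and an adjusted p of 0.0671 in edgeR. With RLE size factors in place of TMM the value was -0.39 and the adjusted p 0.0459, and with DESeq2 -0.40 and 0.0334. With pan-leukocyte scaling the value was -0.15 (edgeR adjusted p = 0.509), so the call rests on the scaling. Leaving out each library in turn gave edgeR adjusted p between 0.0519 and 0.150.

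**Figure D1:**
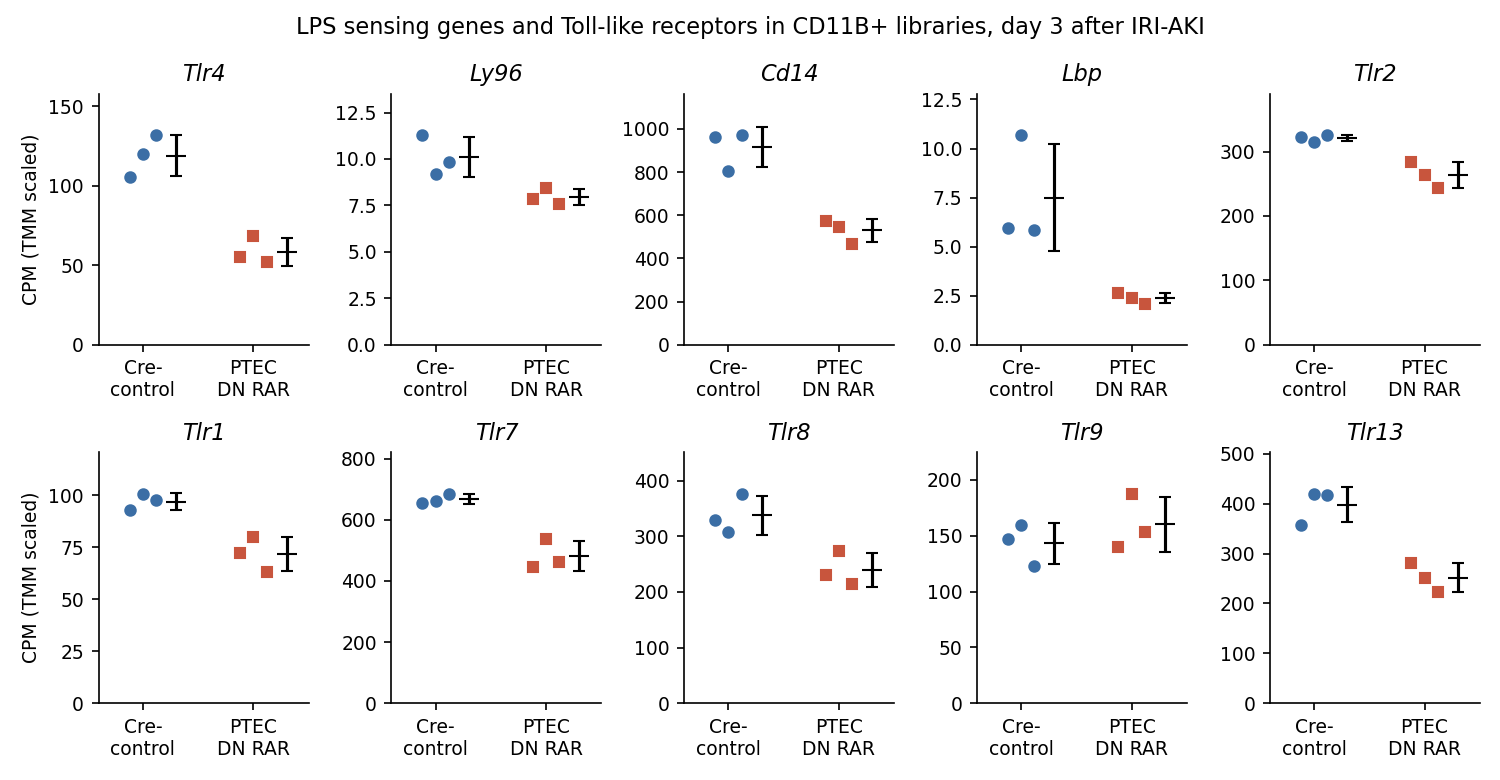
CPM after TMM scaling of the 10 genes in each library, with linear axes from 0. Blue circles are the 3 Cre– controls, red squares the 3 PTEC DN RAR libraries, and the black marks show the mean and SD. For 9 genes every red square lies below every blue circle, and for Tlr9 the groups overlap.

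The surface receptors for lipopeptides had smaller log2 fold changes than Tlr4. Tlr2 (chr3:83836272-83841767, minus strand) had 322, 315 and 325 CPM in controls and 284, 264 and 243 CPM in PTEC DN RAR libraries. The controls were close together, with a coefficient of variation of 1.6%, and the groups did not overlap. The fall of 0.28 ± 0.09 on the log2 scale (edgeR adjusted p = 0.0311) was the smallest of the 8. It did not pass without the third control (adjusted p = 0.0618) or without the second PTEC DN RAR library (adjusted p = 0.0765), although the fold change moved little, to -0.32 and -0.29. With pan-leukocyte scaling it was -0.09 (adjusted p = 0.493).

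Tlr1, which pairs with TLR2 to bind triacylated lipopeptides (chr5:64924679-64933563, minus strand), stood at 92.6, 101 and 97.5 CPM in controls and 72.3, 79.7 and 63.0 CPM in PTEC DN RAR libraries. The highest PTEC DN RAR value was below the lowest control, and the log2 fold change was -0.44 ± 0.10 (edgeR adjusted p = 0.00958), or -0.24 with pan-leukocyte scaling, which did not pass (adjusted p = 0.0981). Its neighbor on chromosome 5, Tlr6, pairs with TLR2 to bind diacylated lipopeptides and had 22.4, 24.3 and 24.3 CPM in controls and 16.7, 16.9 and 15.9 CPM in PTEC DN RAR libraries. Tlr6 fell by 0.52 ± 0.10 (edgeR adjusted p = 0.00403), and by the same scaling its value was -0.32 (adjusted p = 0.0726). Tlr1 and Tlr6 are close paralogs, and reads that align to both were left out of the counts.

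Among the endosomal receptors, Tlr13, Tlr8 and Tlr7 fell and Tlr9 did not pass the test. Tlr13, a mouse receptor for bacterial ribosomal RNA (chrX:106143204-106160493, plus strand), had 358, 420 and 418 CPM in controls against 281, 252 and 222 CPM in PTEC DN RAR libraries. It fell by 0.66 ± 0.11 on the log2 scale (edgeR adjusted p = 0.00275), the largest of the 3 falls, with no overlap between groups.

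Tlr7, the receptor for single-stranded RNA (chrX:167304929-167330558, minus strand), was the most abundant Toll-like receptor. Controls held 656, 662 and 685 CPM and PTEC DN RAR libraries 445, 538 and 463 CPM. The groups were well apart, and the fall was 0.47 ± 0.10 (edgeR adjusted p = 0.00686), to 72.2% of the control mean. With pan-leukocyte scaling the value was -0.27 and did not pass (adjusted p = 0.0968).

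Tlr8, its neighbor on the X chromosome and a sensor of RNA breakdown products (chrX:167242696-167264329, minus strand), had 329, 308 and 376 CPM in controls and 230, 273 and 214 CPM in PTEC DN RAR libraries. It fell by 0.50 ± 0.12 (edgeR adjusted p = 0.0111), a value close to that of Tlr7, and as for Tlr7 the call ended with pan-leukocyte scaling (-0.30, adjusted p = 0.0846).

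Tlr9, the receptor for unmethylated CpG DNA (chr9:106222598-106226883, plus strand), was the only one of the 10 genes whose groups overlapped. Its values were 147, 160 and 123 CPM in controls and 140, 187 and 153 CPM in PTEC DN RAR libraries. The log2 fold change was 0.16 ± 0.13 (SE, edgeR adjusted p = 0.372), and between 0.02 and 0.25 when each library was left out in turn. Tlr9 is best known from plasmacytoid dendritic cells and B cells, and markers of both types stood beside it: the plasmacytoid list summed to 343.3–807.7 CPM in PTEC DN RAR libraries and 217.2–309.7 CPM in controls. Most of that sum came from Klk1, a gene that kidney tubules also express (mean 447 CPM in PTEC DN RAR libraries and 154 CPM in controls), and from Tcf4, which was at 92.6 against 109 CPM (log2 fold change -0.23, edgeR adjusted p = 0.0618). The more specific marker Siglech was at a mean of 1.26 against 0.50 CPM (log2 fold change 1.30, adjusted p = 0.0314), and with Klk1 it made 2 of 5 tested markers of the list that were higher. B cell markers summed to 34.2–50.2 CPM against 23.9–31.1 CPM, with 1 of 5 tested higher (Cd79b, 0.49, edgeR adjusted p = 0.0228). Both counts stand beside 23.6% of all genes tested that were higher, and the B cell count was near that share. The part of either list in the Tlr9 level was not tested.

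Over the whole table, 17.1% of the 15440 genes tested were lower in PTEC DN RAR mice and 23.6% were higher, with a threshold of 0.05 on the adjusted p. Of the 10 genes, 8 were lower and 0 higher. All PTEC DN RAR libraries lay below all controls for 9 of the 10 genes, and for 24.2% of all genes tested. The median log2 fold change of the 10 was -0.48, and that of all genes tested was 0.04. The 24 pan-leukocyte genes had a median of -0.20, with 23 of 24 values below 0, 6 lower and 0 higher. Because the 10 genes were listed with earlier results of these data known, these counts are a description of the set.

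Levels between genes were compared per kilobase of exon. In controls Cd14 came first at 527.9 ± 53.5 CPM per kb, followed by Tlr7 at 163.5, Tlr2 at 106.5, Tlr8 at 94.1 and Tlr13 at 92.6. Ranges over the 3 controls overlapped between Tlr2 and Tlr8 and between Tlr8 and Tlr13, so these neighbors did not differ beyond their spread. Tlr9 (41.2), Tlr1 (29.0), Tlr4 (21.4) and Ly96 (9.90) came next without overlap, and Lbp stood at 1.55 CPM per kb.

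The first 8 places were held by the same genes in the same order in PTEC DN RAR libraries. There Tlr9 reached the range of Tlr13, with 40.1, 53.9 and 44.1 CPM per kb for Tlr9 and 65.3, 58.5 and 51.6 for Tlr13. In controls the lowest Tlr13 value, 83.2, was above the highest Tlr9 value, 45.9. Tlr4 was at 10.5 ± 1.56 CPM per kb in PTEC DN RAR libraries, and Tlr12 had the ninth place by mean with 8.22 ± 2.08. The range of Tlr12 overlapped those of Tlr4, Ly96 and Tlr3, so its place did not differ from theirs beyond the spread.

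**Figure D2:**
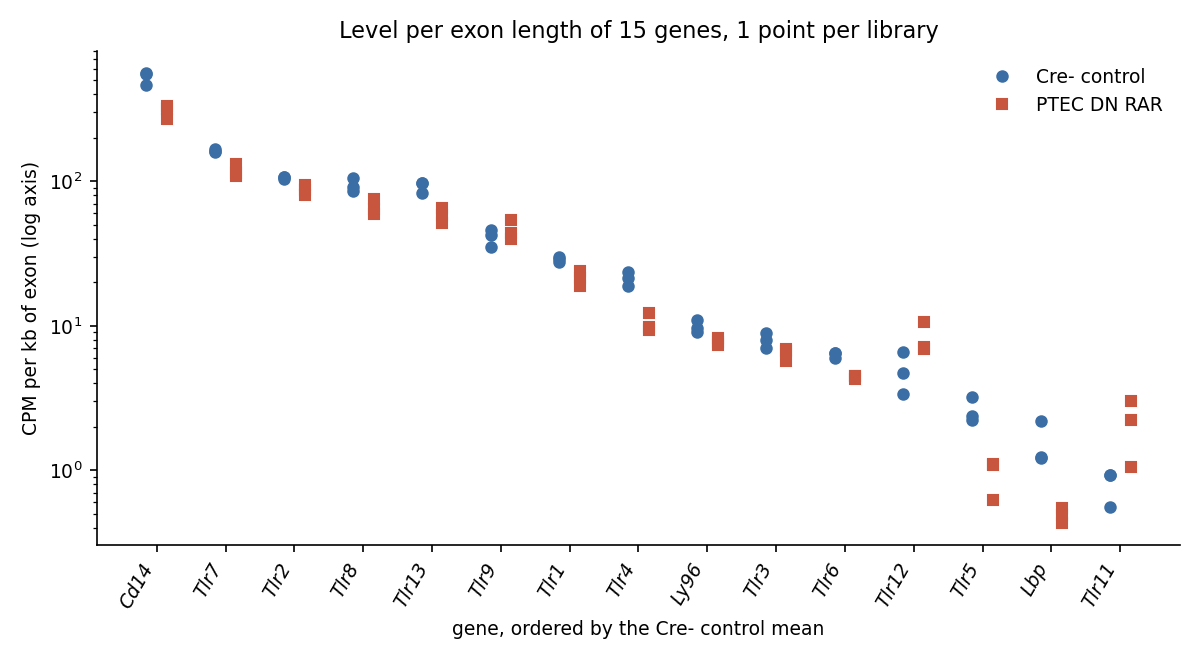
CPM per kilobase of exon on a log axis for the 10 genes and the 5 other Toll-like receptor genes, ordered by the mean of the Cre– controls, with 1 point per library. Cd14 is the highest of the 15 genes in both genotypes, and Tlr11, Tlr12 and Tlr9 have a higher mean in PTEC DN RAR libraries.

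The other 5 Toll-like receptor genes did not move one way. Tlr5, the flagellin receptor, had 10.7, 11.4 and 15.4 CPM in controls and 5.21, 2.99 and 5.34 CPM in PTEC DN RAR libraries, a fall of 1.46 ± 0.24 on the log2 scale (edgeR adjusted p = 0.00241). Tlr6 fell as given above. Tlr3, the receptor for double-stranded RNA, had a log2 fold change of -0.31 ± 0.12 (edgeR adjusted p = 0.0651). The value was -0.35 with DESeq2 (adjusted p = 0.0415) and -0.10 with pan-leukocyte scaling (edgeR adjusted p = 0.644). An exon of Gm45542 on the other strand overlaps part of the Tlr3 exons.

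Tlr11 and Tlr12, which bind profilin of protozoan parasites, were higher. Tlr11 was at 3.02, 3.02 and 1.84 CPM in controls and at 7.33, 9.92 and 3.45 CPM in PTEC DN RAR libraries (log2 fold change 1.39 ± 0.37, edgeR adjusted p = 0.0180). Tlr12 was at 10.8, 21.0 and 15.0 CPM against 22.7, 33.7 and 21.9 CPM (log2 fold change 0.75 ± 0.25, adjusted p = 0.0422). In both, the lowest PTEC DN RAR value was only just above the highest control. Tlr11 did not pass without the third control (1.14, adjusted p = 0.0739) or the second PTEC DN RAR library (1.03, adjusted p = 0.0591), and Tlr12 did not pass without 5 of the 6 libraries in turn, with adjusted p up to 0.141. Tlr12 also missed the threshold with RLE size factors (0.71, adjusted p = 0.0514), and Tlr11 with limma-voom (1.27, adjusted p = 0.0507). Kidney tubules are known to express Tlr11, and proximal tubule markers summed to 2163–3303 CPM in PTEC DN RAR libraries against 857.2–1039 CPM in controls. Conventional dendritic cell markers summed to 88.6–118.9 CPM against 62.8–96.8 CPM, with 2 of 6 higher, beside 23.6% of all genes tested. The 2 were Xcr1 (log2 fold change 2.46, edgeR adjusted p = 0.00415) and Clec9a (1.31, adjusted p = 0.00684). The other 4 markers of that list did not pass, with log2 fold changes between -0.07 and 0.22. The part of tubular or dendritic cell RNA in the Tlr11 and Tlr12 levels was not tested.

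Ratios of counts within a library do not depend on how libraries are scaled. The log2 ratio of Tlr4 to Ly96 was 3.22, 3.70 and 3.74 in controls and 2.80, 3.01 and 2.77 in PTEC DN RAR libraries, a difference of -0.69 without overlap. The log2 ratio of Tlr4 to the pan-leukocyte gene Ptprc (CD45) was -2.98, -3.15 and -2.85 in controls and -3.90, -3.89 and -3.96 in PTEC DN RAR libraries, a difference of -0.92 without overlap. Relative to both genes, Tlr4 was lower in all 3 PTEC DN RAR libraries than in any control.

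The ratio of Tlr6 to Tlr2 differed by -0.23 on the log2 scale without overlap, whereas the ratios of Tlr4 to Cd14 (difference -0.25) and Tlr1 to Tlr2 (difference -0.15) overlapped between groups. In two-sided exact permutation tests, p was 0.1 for the 3 ratios without overlap and 0.3 for the other two, or 0.167 and 0.3 after Benjamini-Hochberg adjustment over the 5 pairs. The smallest p that 3 libraries against 3 can give is 0.1, so no ratio could pass 0.05 in this test.

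**Figure D3:**
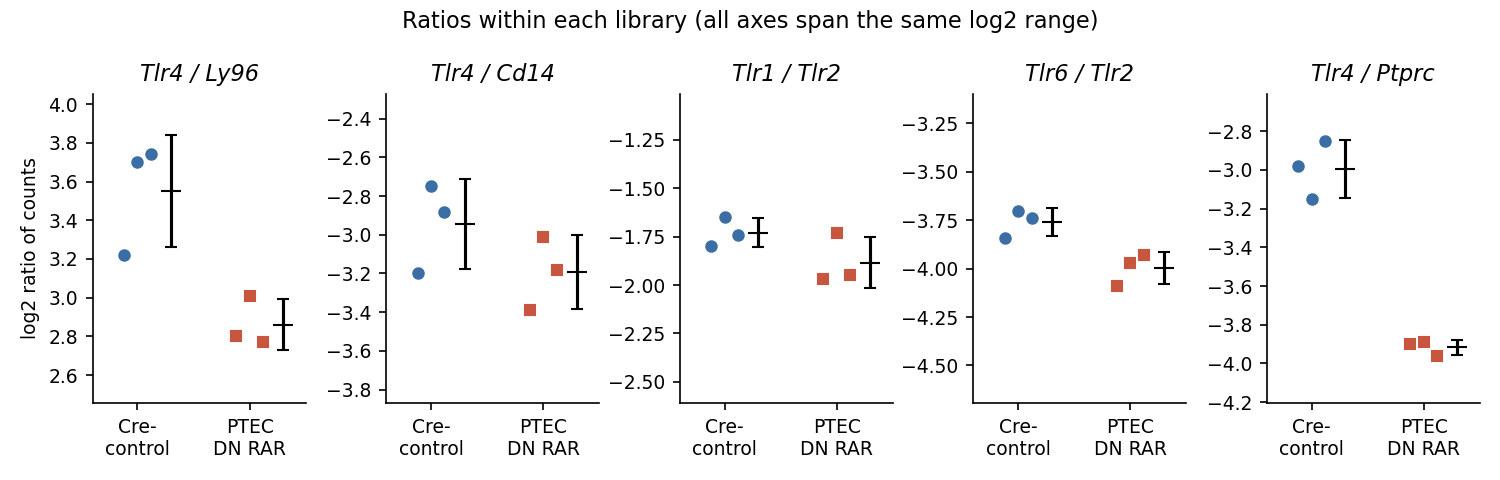
Log2 ratio of read counts of 2 genes within each library, for 5 pairs, with blue circles for Cre– controls, red squares for PTEC DN RAR libraries and black marks for mean and SD. Each axis spans the same number of log2 units, and the groups are separate for Tlr4 to Ly96, Tlr6 to Tlr2 and Tlr4 to Ptprc.

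The number of genes that passed the test moved with the scaling. With libraries scaled on 24 genes that leukocytes share rather than by TMM, the all-gene median of the log2 fold change was 0.24, and 4.87% of genes were lower and 30.92% higher. Calls in the lower direction were then 13.61% of all calls, against 42.0% with TMM. Under that scaling Tlr4 (-0.83), Cd14 (-0.59), Lbp (-1.45) and Tlr13 (-0.47) fell, while Tlr1, Tlr2, Tlr7 and Tlr8 did not pass, with the values given above. With libraries scaled on resident macrophage markers, an alternative chosen after seeing the data, the median of all genes was -0.15, lower calls were 57.18% of all calls, and 9 of the 10 genes were lower, Ly96 included. Tlr9 was the only one of the 10 whose direction changed between scalings, from 0.16 with TMM to 0.37 with leukocyte genes and -0.03 with resident macrophage markers.

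**Figure D4:**
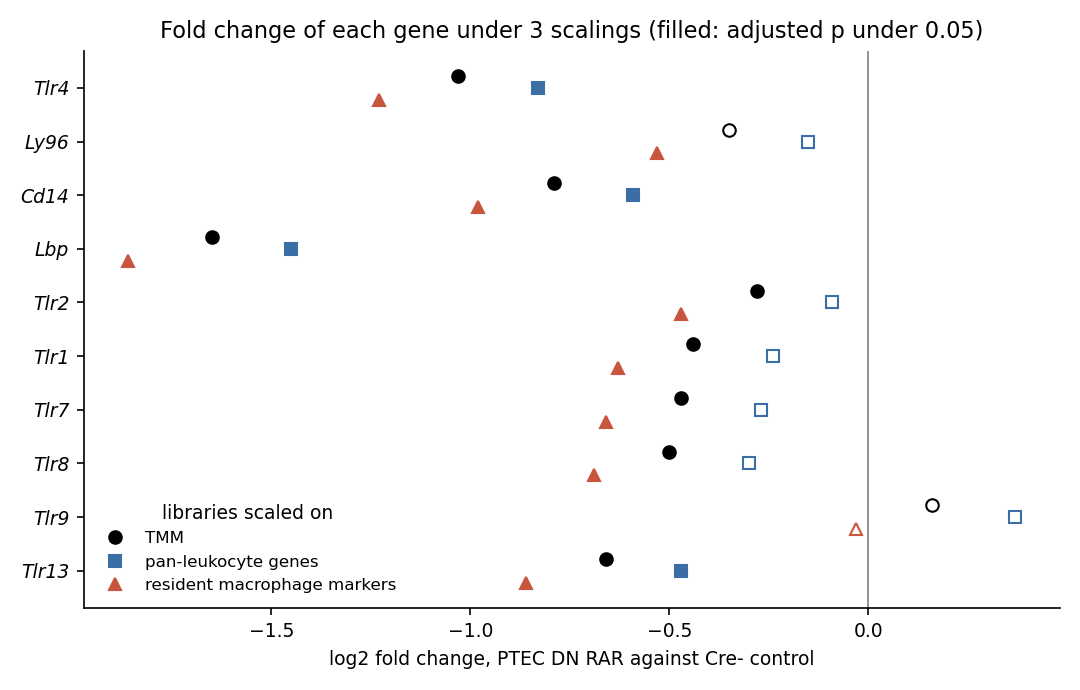
Log2 fold change of the 10 genes, PTEC DN RAR against Cre– control, with libraries scaled by TMM (black circles), on 24 pan-leukocyte genes (blue squares) or on 10 resident macrophage markers (red triangles). Filled symbols passed an adjusted p of 0.05 in edgeR. Tlr4, Cd14, Lbp and Tlr13 are filled under all 3 scalings, and Tlr9 under none.

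Around the 10 genes, 87 others were examined in 8 lists, from the remaining receptors and their ligands to adaptors, regulators and LPS response genes, of which 85 could be tested. Of these, 37 were lower, 8 higher and 40 did not pass, with a median log2 fold change of -0.26. Over all genes tested 17.1% were lower and 23.6% higher, with a median of 0.04, and the counts of each list below are to be read against these shares. Falls were counted in 11 of the 15 LPS response genes tested and in 4 of the 16 adaptor and myddosome genes. With leukocyte gene scaling, 20 were lower and 13 higher, beside 4.87% of all genes lower and 30.92% higher under that scaling. Tlr6, Ticam2, Myd88, Tirap, Hsp90b1, Slc15a3, Nfkbia, Casp4 and Il6 were among those that no longer passed.

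Of 16 genes for the TIR adaptors and the myddosome, 4 fell and none rose, a share of falls near the 17.1% of all genes tested. They were Ticam2 (TRAM, the bridging adaptor of endosomal TLR4 signaling; -0.41), Myd88 (the adaptor shared by most Toll-like receptors; -0.37), Tirap (which brings MyD88 to TLR2 and TLR4; -0.36) and the ubiquitin ligase Traf6 (-0.34), each with an edgeR adjusted p between 0.00527 and 0.0474. Myd88 was steady within groups, at 121, 115 and 122 CPM in controls and 92.9, 93.2 and 91.2 CPM in PTEC DN RAR libraries. Sarm1, a TIR protein known from neurons, was at a mean of 0.432 CPM in controls and 1.02 CPM in PTEC DN RAR libraries (log2 fold change 1.26, edgeR adjusted p = 0.0525). Ticam2 did not pass without the third control (-0.41, adjusted p = 0.0674), nor Tirap without 4 of the libraries in turn (adjusted p up to 0.118). Tirap also missed the threshold with the replicate number as a block (adjusted p = 0.0664), with library size only (0.0574) and with at least 10 counts required in every library (0.0578).

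Below the adaptors, 2 of 10 kinases and transcription factors fell, which is also near the 17.1% of all genes tested. Ikbke, the IKK-related kinase of the interferon arm, had 58.8, 56.5 and 69.0 CPM in controls and 31.2, 29.7 and 27.6 CPM in PTEC DN RAR libraries (log2 fold change -1.06 ± 0.10, edgeR adjusted p = 0.000305). Its relative Tbk1 fell by 0.60 ± 0.10 (adjusted p = 0.00198). The other 8, among them Irf3, Irf5, Irf7, Nfkb1 and Rela, did not pass the test.

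Of 11 genes that fold, move or process the receptors, 5 fell. The asparaginyl endopeptidase Lgmn, which cleaves endosomal receptors, fell by 0.62 (edgeR adjusted p = 0.00479). The receptor chaperone Hsp90b1 (gp96) had 786, 952 and 997 CPM in controls and 590, 689 and 581 CPM in PTEC DN RAR libraries, a fall of 0.56 (adjusted p = 0.00784). The endolysosomal transporter Slc15a3 fell by 0.38 (adjusted p = 0.0114).

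Among 12 negative regulators, 6 fell and 2 rose. Tnip3 fell by 1.17, the MAP kinase phosphatase Dusp1 by 0.94 and the NF-κB inhibitor Nfkbia by 0.53 on the log2 scale (edgeR adjusted p = 0.00221, 0.00100 and 0.00608). All 3 are themselves induced by Toll-like receptor signaling. Sigirr, an inhibitory receptor of the TIR family that epithelial cells also express, rose from 9.12, 6.81 and 7.13 CPM to 14.1, 15.4 and 15.8 CPM (log2 fold change 0.97 ± 0.15, adjusted p = 0.00151). The part of tubular RNA in that level was not tested. Tnip1 rose by 0.26 (adjusted p = 0.0306), a call that was lost without any of 5 of the 6 libraries, with adjusted p up to 0.154, and with DESeq2 (0.22, adjusted p = 0.0914).

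LPS handling outside TLR4 was covered by 8 genes, of which 3 fell and Bpi had no read. Trem1, an amplifier of Toll-like receptor responses on neutrophils and monocytes, fell by 1.07, and the scavenger receptor Cd36 by 0.93 (edgeR adjusted p = 0.00453 and 0.000388). Casp4, the mouse gene for caspase-11, which binds LPS in the cytosol, fell by 0.41 (adjusted p = 0.0299) and did not pass without 4 of the libraries in turn (adjusted p up to 0.0894).

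Of 9 endogenous ligands, 4 fell and 2 rose. Fn1 (fibronectin) went from 1230, 1711 and 1221 CPM to 509, 422 and 264 CPM, a fall of 1.80 ± 0.24 (edgeR adjusted p = 0.000933), and S100a8 and S100a9, the subunits of calprotectin, fell by 1.32 and 1.36 (adjusted p = 0.00805 and 0.00544). S100a8 and S100a9 are also in the neutrophil list, whose sums are given above. The matrix proteoglycans Bgn and Dcn rose by 1.08 and 1.02 (adjusted p = 0.0132 and 0.0167). Without the third control neither passed (0.88, adjusted p = 0.0610, and 0.92, adjusted p = 0.0706), nor did Dcn without the first PTEC DN RAR library (0.84, adjusted p = 0.0627).

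The genes that LPS induces in macrophages had the lowest median of the 8 pathway lists. Of 16 listed, 15 could be tested, 11 fell and 2 rose, with a median log2 fold change of -0.89. The medians of the infiltrating monocyte markers (-0.90) and neutrophil markers (-1.02) were as low, and their part in this list was not tested. The neutrophil attractant Cxcl2 was at 378, 409 and 467 CPM in controls and 147, 101 and 167 CPM in PTEC DN RAR libraries, a fall of 1.60 ± 0.18 (edgeR adjusted p = 0.000455). Il10, the anti-inflammatory cytokine that macrophages also make after LPS, fell by 1.38 (adjusted p = 0.00359), from 12.0, 8.42 and 7.76 to 3.80, 2.52 and 4.51 CPM.

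Il6 had a log2 fold change of -1.19 (edgeR adjusted p = 0.0343) at a mean of 1.90 against 0.831 CPM. Its groups overlapped, at 1.97, 2.72 and 1.01 CPM in controls and 0.693, 1.04 and 0.763 CPM in PTEC DN RAR libraries, and the call was lost without 4 of the libraries in turn (adjusted p up to 0.111). Nos2, which makes nitric oxide, and the chemokine Ccl5 went the other way, by 1.34 and 1.05 (adjusted p = 0.0105 and 0.00239). Nos2 stood at 0.885 CPM in controls and 2.24 CPM in PTEC DN RAR libraries and did not pass without the third control (1.18, adjusted p = 0.0534). Ifnb1 had too few reads to be tested.

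**Figure D5:**
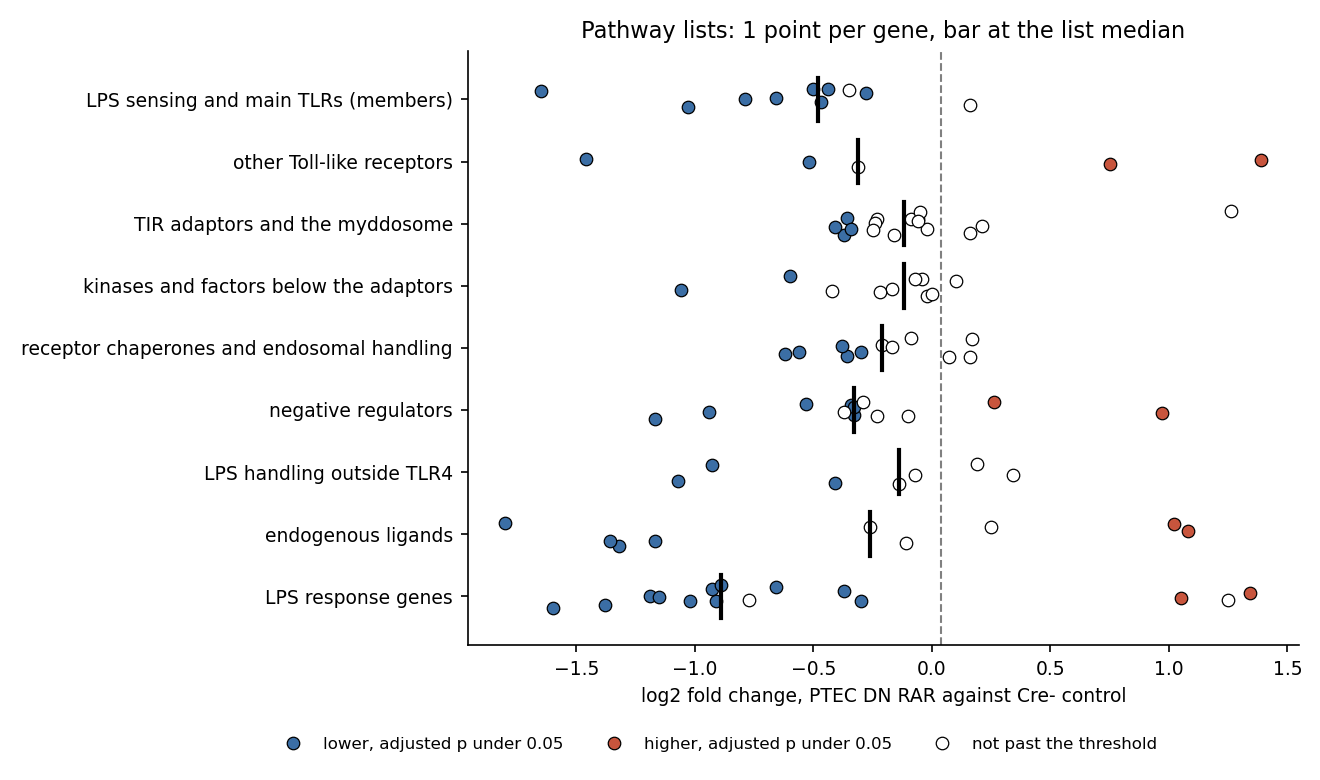
Log2 fold change, PTEC DN RAR against Cre– control, of every tested gene of the set and of the 8 pathway lists, with 1 point per gene and a black bar at each median. Blue points are lower and red points higher at an adjusted p under 0.05, white points did not pass, and the dashed line is the median of all genes tested at 0.04. Of the lists shown, the LPS response genes have the lowest median at -0.89, and the adaptors and kinases lie closest to the dashed line at -0.12.

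The genes whose level followed Tlr4 most closely over the 6 libraries, among 8984 other genes with a mean of at least 10 CPM, were Zswim6 (Pearson r = 0.9986), Ssr3 (0.9975), Cnot4 (0.9973), Vamp4 (0.9960) and Stk17b (0.9960). All 5 fell, by between 0.37 and 0.62 on the log2 scale. Of the 8984 genes, 1260 had an r over 0.9, and the 6 libraries fall into 2 genotypes that also differ in cell type markers, so the order is a description.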

How the data were processed

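For each of 6 libraries the authors deposited unnormalized counts of reads by Ensembl identifier. The submitters' processing notes name STAR 2.5.0a, HTSeq 0.6.1, edgeR, limma and GRCm38, without settings. Reads aligned to more than 1 place (42.93–47.75% of alignments) and lines that name no gene were left out, so close paralogs are undercounted. Strandedness of the counting is not given in the sources used here.

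Low counts were removed with filterByExpr. TMM factors and the quasi-likelihood test came from edgeR 4.0.16 (R 4.3.3). The 15440 p values were adjusted by Benjamini-Hochberg, and a call needed an adjusted p under 0.05. The script was tested on simulated data. SE is the size of the log2 fold change divided by the root of F. CPM are TMM scaled. Ratios add 0.5 counts to each gene. Likeness used log2 CPM with a prior count of 2. Positions and exon lengths are from GENCODE M21, in which 46005 of 46603 identifiers were found, and promoters from RefSeq. Acod1 was matched by identifier.

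Named were the 10 genes, the other Toll-like receptors, up to 3 genes per list and direction with the largest change past the threshold, untested list genes and the 5 genes most like Tlr4. Traf6, Sarm1 and the named markers Ccr2, Itgam, Klk1, Tcf4, Siglech, Cd79b, Xcr1 and Clec9a were added after their values were seen. The members and lists were chosen with earlier results of these data known. Alternatives used DESeq2 1.42.0, limma 3.58.1, other scalings, filters, a replicate block and leaving out each library. Libraries of one group differed beyond sampling noise (chi-square per degree of freedom 29.8–64.3). The per-million value of 3 reads covers counting error alone.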

Additional observations from a re-analysis of the deposited data

How the results depend on the processing

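With libraries scaled on pan-leukocyte genes, 752 genes in place of 2636 were lower, and 4774 in place of 3640 were higher. Of the 10 Toll-like receptor and LPS sensing genes, 4 in place of 8 were lower. Of the pathway genes, 20 in place of 37 were lower and 13 in place of 8 higher. The cause was not tested. Leaving out each library in turn gave 1874 to 2824 genes lower and 2433 to 3699 higher, 7 to 8 of the 10 genes lower and 0 higher, and 28 to 35 pathway genes lower and 2 to 8 higher. The lowest of the last, 2, was without the third Cre– control, where 10 of the 41 named genes no longer passed. Log2 ratio differences then ranged from -0.86 to -0.60 for Tlr4 to Ly96, -0.37 to -0.15 for Tlr4 to Cd14, -0.23 to -0.11 for Tlr1 to Tlr2, -0.28 to -0.19 for Tlr6 to Tlr2 and -1.0 to -0.85 for Tlr4 to Ptprc. With resident macrophage scaling, chosen after seeing the data, Tlr9 changed sign to -0.03 (adjusted p = 0.895). With the replicate number as a block, 8 of the 10 genes were lower and 16.88% of all genes lower and 23.39% higher. Deviations of same-numbered libraries correlated at -0.01, 0.21 and 0.03, and those of differently numbered libraries at between -0.18 and 0.15. With 3 libraries per group, these values cannot decide whether the numbers pair the libraries. DESeq2, RLE size factors and leaving out mitochondrial genes each added Ly96 to the 8, and voom, library size only and the other filters on low counts kept the 8. Depth limits statements on genes near 1 CPM, such as Il6, Nos2 and Sarm1.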
